A study of Homo sapiens with 12 samples.

Results

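Intergenic RNF2 peaks with H2AK119ub are the RNF2 sites that lie away from protein-coding genes and carry the histone mark that RNF2 writes. Members were selected on measured values: an RNF2 peak narrower than 10 kb, an overlap of 1 bp or more with an H2AK119ub island, and a midpoint more than 10 kb from every protein-coding gene body of the RefSeq table. This rule took 4854 of 29310 RNF2 peaks (16.6%). Chromatin immunoprecipitation followed by sequencing had been run on H1 cells, a widely used line of human embryonic stem cells. The knockdown groups were H1 cells treated with YTHDF1 shRNA, with YTHDF1 and input libraries, and the wild-type groups were untreated H1 cells with YTHDF1, RNF2, H2AK119ub and input libraries. Each of the 6 groups had 2 biological replicates, 12 libraries in all, and the authors had merged the replicates of a mark into 1 peak list. There is thus no spread between replicates and no test between conditions, and the depth of the libraries is unknown. Intervals on shares (exact Clopper-Pearson, 95%) cover counting error only. They treat peaks as independent, although 2265 members (46.7%) lay on an island with more than 1 member, so the intervals may be too narrow. Peak lists hold no expression values, so neither the cell type nor the knockdown could be checked against marker genes or the YTHDF1 transcript. The labels do not say whether the knockdown cells were a clone or a pool.

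RNF2, also known as RING1B, is the E3 ubiquitin ligase at the core of the Polycomb complex PRC1. Its product, H2AK119ub, is a single ubiquitin on a lysine of histone H2A. In embryonic stem cells PRC1 is best known at CpG islands of silent developmental genes, where broad domains of the complex and its mark form. CpG islands also occur at the starts of many long non-coding RNA (lncRNA) genes and between genes. YTHDF1 is a reader of N6-methyladenosine on RNA, studied mainly for its part in translation, and the series sets its sites on chromatin beside those of RNF2 and H2AK119ub.

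The starts of lncRNA genes were the sites where sequence could be read under the members. CG-rich lncRNA starts lay under a member far more often than CG-poor ones, and the same held for RNF2 peaks of any class. RefSeq promoter sequences (GRCh38.p14, from 250 bases before to 50 after each start) were available for 23 chromosomes, and 383 members lay over 448 lncRNA starts of 406 genes. The 5 promoters below are shown because they lie under members of high fold and differ in CG content, with the CG dinucleotides in capitals. Among named lncRNA genes with such a promoter start under a member, they belong to those of highest RNF2 fold enrichment. Identifiers that begin with LOC or HCG were passed over, a choice made after the values were seen. Some other named lncRNA genes overlapped members of higher fold, such as LINC00997 at 17.4-fold, and are not in this ranking.
LINC00345, chr13:52600558-52600857, minus strand: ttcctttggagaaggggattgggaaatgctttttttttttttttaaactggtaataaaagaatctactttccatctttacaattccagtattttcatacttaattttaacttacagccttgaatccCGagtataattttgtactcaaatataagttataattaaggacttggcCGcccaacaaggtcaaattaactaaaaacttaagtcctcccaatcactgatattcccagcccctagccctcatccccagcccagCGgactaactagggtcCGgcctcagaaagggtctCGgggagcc
HAR1B, chr20:63102270-63102569, minus strand: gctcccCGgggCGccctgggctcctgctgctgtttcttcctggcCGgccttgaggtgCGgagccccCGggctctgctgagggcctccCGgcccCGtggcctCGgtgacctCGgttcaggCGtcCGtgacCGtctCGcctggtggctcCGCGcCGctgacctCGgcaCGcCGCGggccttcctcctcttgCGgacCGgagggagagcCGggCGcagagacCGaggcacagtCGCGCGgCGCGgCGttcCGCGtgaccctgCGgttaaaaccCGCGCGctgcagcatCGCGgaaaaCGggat
LINC00674, chr17:68101305-68101604, plus strand: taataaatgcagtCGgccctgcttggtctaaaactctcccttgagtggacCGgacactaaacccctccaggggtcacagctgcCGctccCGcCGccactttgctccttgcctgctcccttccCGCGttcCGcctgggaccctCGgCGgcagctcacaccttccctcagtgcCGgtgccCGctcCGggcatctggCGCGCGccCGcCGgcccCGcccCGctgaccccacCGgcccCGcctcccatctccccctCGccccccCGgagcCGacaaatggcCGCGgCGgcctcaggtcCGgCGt
SCIRT, chr6:44003601-44003900, minus strand: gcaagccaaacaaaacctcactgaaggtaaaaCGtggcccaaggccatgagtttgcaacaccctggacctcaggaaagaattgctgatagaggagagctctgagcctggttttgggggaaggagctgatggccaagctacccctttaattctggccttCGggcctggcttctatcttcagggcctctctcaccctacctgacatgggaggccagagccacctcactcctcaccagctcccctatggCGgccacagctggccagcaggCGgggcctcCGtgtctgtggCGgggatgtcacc
LINC00673, chr17:72592755-72593054, minus strand: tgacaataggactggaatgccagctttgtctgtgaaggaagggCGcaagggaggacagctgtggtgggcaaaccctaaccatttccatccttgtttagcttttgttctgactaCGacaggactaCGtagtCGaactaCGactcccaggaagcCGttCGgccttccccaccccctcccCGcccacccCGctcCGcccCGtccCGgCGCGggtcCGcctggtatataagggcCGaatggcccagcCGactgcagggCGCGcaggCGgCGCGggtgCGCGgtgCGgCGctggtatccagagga
HAR1B, on the strand opposite to the neuronally expressed HAR1A at a region that changed rapidly in human evolution, had 40 CG in these 300 bases and lay under a 10.6-fold member of 1.61 kb. LINC00674 had 30 CG and lay under a 10.6-fold member, which also carried 1 of the strongest YTHDF1 peaks among members, at 4.49-fold. LINC00673 had 26 CG under a 9.84-fold member of 4.83 kb. At the other end, LINC00345 had 5 CG and SCIRT 6 under members of 10.9-fold and 9.94-fold, so members of similar fold lay over starts with few and with many CG.

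Over all 6277 lncRNA starts more than 10 kb from coding genes, 442 lay under a member (7.04%, 6.42 to 7.70%). The 442 starts belonged to 401 genes. Starts of the same gene or under the same peak are not independent, so the intervals on shares of starts may also be too narrow. Among starts with 0 to 4 CG the share was 1.06% (43 of 4064), with 5 to 9 CG 6.63% (78 of 1177), with 10 to 19 CG 19.4% (111 of 571), with 20 to 29 CG 42.0% (123 of 293) and with 30 or more CG 50.6% (87 of 172). None of the exact intervals of neighbouring classes overlapped except those of the last 2, which were 36.3 to 47.9% and 42.9 to 58.3%. Under an RNF2 peak of any class the shares were 1.77%, 8.50%, 24.2%, 55.6% and 62.2% in the same order. The rise was thus not particular to members. The median number of CG was 18 at starts under members and 3 at the other intergenic lncRNA starts, and the median GC content was 62.3% and 45%. At coding gene starts the medians were 21 CG and 62.3% GC. A CG was present in 96.0% of all promoters of that table. Total GC content moves with the number of CG, so the classes were also read within bands of GC. Between 55 and 65% GC, 36.2% of starts with 20 or more CG lay under a member (51 of 141), against 7.95% of those with 0 to 9 CG (38 of 478). At 65% GC or more the shares were 49.5% (158 of 319) and 3.45% (1 of 29, interval 0.0873 to 17.8%). Between 45 and 55% GC only 5 starts had 20 or more CG, of which 1 lay under a member. GC still differed within the bands, with medians of 62.3% against 58.0% in the 55 to 65% band and 70.7% against 66.0% above it. H2AK119ub islands alone covered 9.87% of the starts with 0 to 4 CG and 64.5% of those with 30 or more, and the part of read coverage of GC-rich DNA in these shares was not tested.

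**Figure D1:**
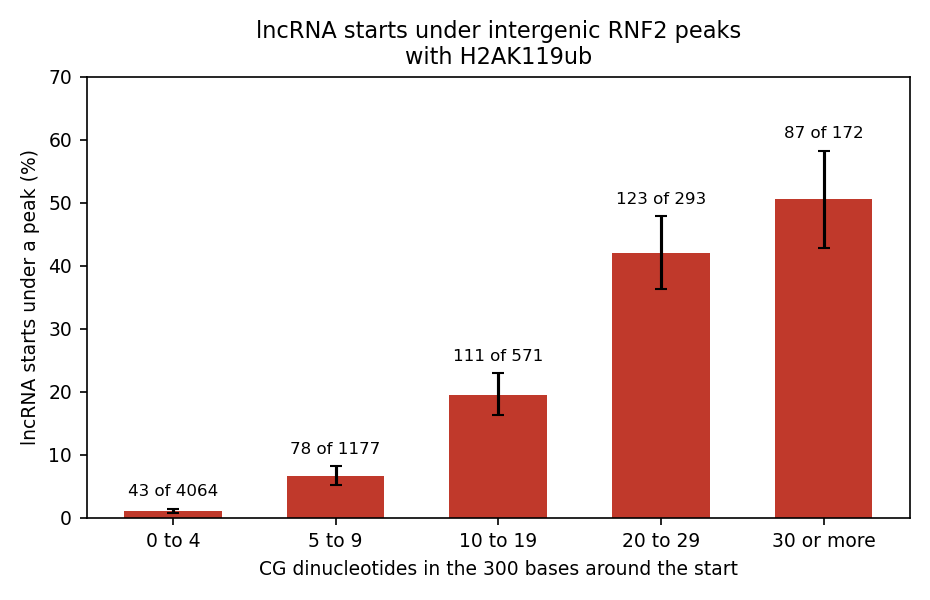
Share of lncRNA starts more than 10 kb from coding genes that lay under an intergenic RNF2 peak with H2AK119ub (vertical axis, percent) by the number of CG dinucleotides in the 300 bases around the start (horizontal axis). Bars are shares, whiskers exact 95% intervals and the labels the counts. The share is 1.06% in the lowest class and 50.6% in the highest.

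Small RNA genes gave the second set of sequences. Members that overlapped a microRNA gene numbered 15 (0.309%), against 0.594% of all RNF2 peaks narrower than 10 kb. The share was 0.108% for intergenic peaks without an island. The 15 members lay on 15 microRNA genes, of which 12 had a mature sequence in the RefSeq table. Those below are shown because they are long-studied microRNAs, picked after the values were seen, with the seed (bases 2 to 8) in capitals.
hsa-miR-193a-3p, chr17:31560050-31560071, plus strand: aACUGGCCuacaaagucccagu
hsa-miR-193b-3p, chr16:14304017-14304038, plus strand: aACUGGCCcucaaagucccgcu
hsa-miR-125b-5p, chr11:122099809-122099830, minus strand: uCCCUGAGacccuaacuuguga
hsa-miR-148a-3p, chr7:25949922-25949943, minus strand: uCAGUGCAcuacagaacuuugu
miR-193a-3p and miR-193b-3p share the seed ACUGGCC, and the genes of both lay under members on different chromosomes. MIR193A (chromosome 17) lay under an 8.41-fold RNF2 peak of 3847 bp with a 3.06-fold YTHDF1 peak, and MIR193B (chromosome 16) under a 4.62-fold peak of 4599 bp without one. MIR148A and MIR125B1 lay under peaks of 6.26-fold and 5.03-fold. The strongest microRNA member was that of MIR124-3, a gene of the neuronal microRNA miR-124, at 16.2-fold over 8589 bp (chromosome 20, 63172638 to 63181226, hg38). It lay 18497 bp from its nearest coding gene, which is YTHDF1 itself, and carried a YTHDF1 peak of 2.81-fold with a −log10 q of 1.58, near the list's lowest value of 1.502. 

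Genes of transfer RNA (tRNA) were overlapped by 65 members (1.34%) over 76 genes. The share was 0.476% for all RNF2 peaks narrower than 10 kb and 0.323% for intergenic peaks without an island. The 76 genes were 27.4% (22.3 to 33.1%) of the 277 tRNA genes that lie more than 10 kb from coding genes. That compares with 3.08% (1.73 to 5.03%) for the 487 intergenic microRNA genes and 10.02% (9.44 to 10.6%) for the 9967 intergenic lncRNA gene bodies. Under any RNF2 peak the shares were 36.8%, 5.75% and 18.0% in the same order, so the higher share of tRNA genes was not particular to members. Of the tRNA members, 33 lay within 26330024 to 28981711 on chromosome 6, the extended major histocompatibility region with its histone and tRNA gene clusters. The highest was a 5777 bp peak over TRA-AGC1-1, an alanine tRNA gene, at 29.6-fold with a 2.95-fold YTHDF1 peak. The next were TRV-TAC4-1 at 9.77-fold and TRV-AAC4-1 at 9.32-fold, both valine tRNA genes of that cluster. YTHDF1 lay on 8 of the 65 (12.3%, 5.47 to 22.8%), an interval that holds the 9.15% of all members. tRNA genes have near-identical copies, and how the authors treated reads that fit several copies is not given in the sources used here.

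Non-coding gene bodies of any kind held the midpoint of 1521 members (31.3%, 30.03 to 32.7%). Over all RNF2 peaks narrower than 10 kb the share was 17.1%, where most peaks sit in or at coding genes and non-coding genes are counted from the same table. Intergenic RNF2 peaks without an island gave 30.9% (28.8 to 33.0%), so the 2 intergenic classes had overlapping intervals. Counted by any overlapping base, 37.6% of members lay on a non-coding gene. lncRNA genes were overlapped by 30.7% of members (1490), 28.9% of intergenic peaks without an island and 21.6% of all RNF2 peaks narrower than 10 kb. For transcribed pseudogenes the shares were 3.46% (168 members), 2.47% and 1.38%, and for pseudogenes 2.66% (129 members), 2.31% and 1.43%, in the same order of classes. TARID, an antisense lncRNA of the TCF21 locus, held a member of 17.4-fold and 6045 bp that also lay over an end of LINC01312, 34.8 kb from TCF21, a transcription factor of mesoderm-derived mesenchyme. LINC00997 lay under a 17.4-fold member of 4834 bp.

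As a description of what the rule used, members had a median RNF2 fold enrichment of 3.50 (2.17 to 46.8) and a median width of 1186 bp (252 to 9989 bp), and together covered 8.09 Mb. Fold enrichments are the authors' own per-peak values and were read within 1 list only. RNF2 peaks with H2AK119ub had median folds of 3.94 within 10 kb of a coding gene (5497 peaks) and 4.18 inside one (13886 peaks). Their widths had medians of 1407 and 1613.5 bp. The 1859 intergenic peaks without an island had medians of 3.08-fold and 616 bp. Of all 6713 intergenic RNF2 peaks narrower than 10 kb, 72.3% (71.2 to 73.4%) met an island, against 88.6% (88.1 to 89.0%) of the other 21886. The share grew with peak width, being 45.5% up to 500 bp and 96.1% above 4 kb. Wider members had higher folds (Spearman rho 0.56 across 4854 peaks of 1 list), while rho was 0.03 between fold and island width and 0.03 between fold and distance from coding genes.

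**Figure D2:**
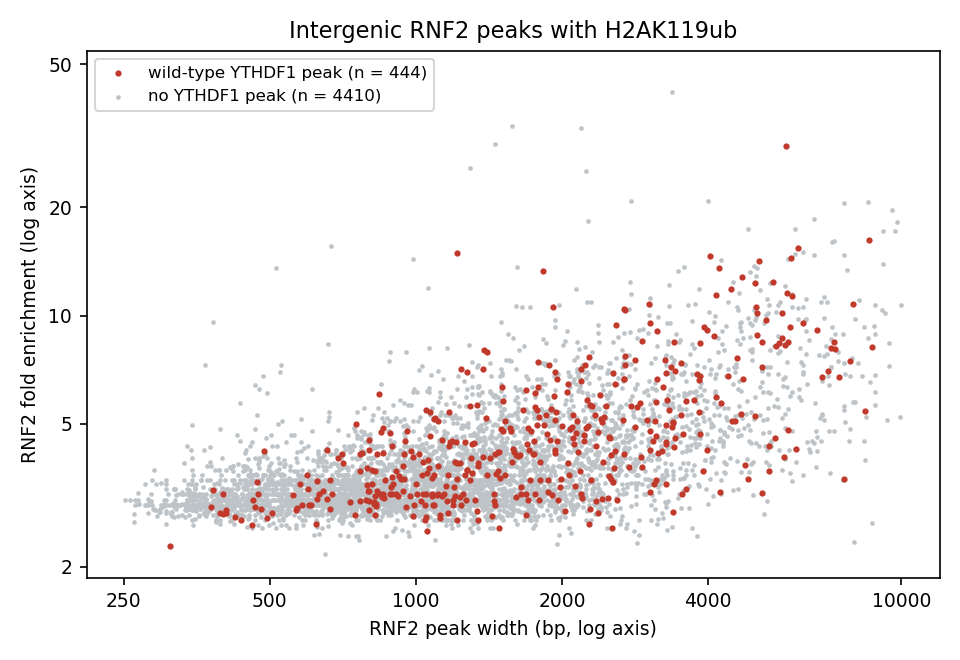
RNF2 fold enrichment (vertical axis, log) against RNF2 peak width in bp (horizontal axis, log) for the 4854 intergenic RNF2 peaks with H2AK119ub. Each point is a peak, and red points are the 444 with a wild-type YTHDF1 peak, which lie mostly among wider peaks, with a median width of 1733.5 bp against 1141.5 bp for the 4410 without one.

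The members lay on 3464 distinct islands, whose width had a median of 8200 bp over members. Islands covered 4118 members whole (84.8%) and held the RNF2 summit of 4690 (96.6%). More than 1 member lay on 858 islands, up to 14 on the same island, and for 503 members (10.4%) the island itself reached into a coding gene body. Near the distance limit, the 5 members just inside had midpoints 10001 to 10065 bp from a gene and folds of 3.15 to 3.50. The 5 peaks just outside lay at 9941 to 9997 bp with folds of 2.90 to 5.04. The 5 intergenic peaks just over the width limit measured 10158 to 10252 bp with folds of 4.85 to 22.8, and their nearest coding genes were SIX2, CALCOCO1, TOPAZ1 and ALPG. The smallest island overlaps were 2, 11, 27, 31 and 34 bp.

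Several of the 10 highest folds belonged to narrow peaks at multi-copy genes or beside genes with near-identical copies. Both members at 46.8-fold had the same −log10 q of 514. That of 555 bp lay between RNA5S5 and RNA5S6 in the 5S ribosomal RNA array of chromosome 1 (228620691 to 228621245), on an island of 600 bp. The other lay at 62837892 to 62838858 on chromosome 9, over the pseudogene transcript PTGER4P2-CDK2AP2P2, with further members of 33.8-fold and 33.2-fold within 10 kb of it. A member of 41.9-fold on chromosome 7 (65508642 to 65512015) lay 109.2 kb from ZNF92. None of these carried a YTHDF1 peak. The part of reads that fit several copies in these folds was not tested. High folds were also found at wide members, several of them with a developmental regulator as nearest gene. TBX5, a heart and forelimb factor, had a 20.7-fold member of 8547 bp at 71.3 kb. A 19.6-fold member of 9550 bp lay between HOXC4 and SMUG1 on an island of 126.8 kb. FOXD1, a factor of kidney stroma, had an 18.2-fold member of 9806 bp at 65.9 kb, and a 17.1-fold member of 9719 bp lay 73.2 kb from LARP1, its nearest gene, and 131.5 kb from HAND1, a heart factor.

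Of the members, 2971 (61.2%, 59.8 to 62.6%) lay within 20 kb of another member, in 932 runs, and 310 lay in 21 runs of 10 or more. The share was near that of all RNF2 peaks narrower than 10 kb, of which 64.9% lay within 20 kb of another such peak. Within their own class it was 38.9% for peaks with H2AK119ub within 10 kb of a coding gene and 50.3% for those inside one. For intergenic peaks without an island it was 43.5%. These classes differ in size from the members. With the better-scoring 50% of the RNF2 list the members' share was 38.0%. The run with the most members held 31 members over 166.3 kb of chromosome 22 (22298147 to 22464468) in the immunoglobulin lambda locus, which encodes antibody light chains and is joined by recombination in B cells. That locus (22026076 to 22922913) held 62 members with a median of 3.92-fold. Of these 0 had a YTHDF1 peak (interval 0 to 5.78%), beside 9.15% of all members. It counts as intergenic here because RefSeq lists it and its V segments outside the protein-coding class. The next by number lay between TCF3 and ONECUT3 on chromosome 19 (21 members in 78.4 kb), between INSIG1 and EN2 on chromosome 7 (19 in 93.6 kb), between IRF8 and FOXF1 on chromosome 16 (19 in 105.8 kb), and between TOP3B and VPREB1 at the edge of the lambda locus (17 in 62.8 kb). Sequence between coding genes and more than 10 kb from them came to 1563 Mb, with 3.10 members per megabase. It leaves out chromosome ends beyond the outermost coding genes, although any members there are counted. Assembly gaps and sequence where reads cannot be placed were not taken out of it. The density was 9.70 on chromosome 17, 7.85 on chromosome 19 and 6.48 on chromosome 22. Of the 176 members on chromosome 22, 62 were those of the lambda locus. On X the density was 0.737 and on Y 0.0923, the latter from 2 members. The part of chromosome copy number and of unplaceable sequence in these densities was not tested.

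The coding gene nearest to a member was often a developmental transcription factor gene. Such genes, 368 on the list used, were nearest to 791 members (16.3%, 15.3 to 17.4%). They were nearest to 7.2% of all RNF2 peaks narrower than 10 kb. Of the intergenic bases, those between coding genes and more than 10 kb from them, 4.26% were nearest to such genes. Intergenic RNF2 peaks without an island were nearest to them still more often, at 32.4% (30.3 to 34.6%), so closeness to these genes was not particular to peaks with the mark. In all, 164 of the 368 genes were nearest to a member, and 60 had 5 or more, together 570 members. FOXF1, a factor of lung and vascular mesenchyme, had 23 members between 30.02 and 277.5 kb away with a median of 3.29-fold, while the gene itself lay under an RNF2 domain of 36.7 kb and 99.6-fold. FOXA2, an endoderm and floor plate factor, had 22 members of median 3.36-fold at up to 241.4 kb and a domain of 38.5 kb and 79.9-fold over the gene. FOXD2 had 19 members, NR2F2, TBX5 and the neural factor SOX1 had 17 each, and EN1 and EN2, of the midbrain-hindbrain boundary, had 14 each. Of the 12 such genes with most members, 11 lay under a domain of 10 kb or more, and GLI2, an effector of Hedgehog signalling with 12 members, did not.

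**Figure D3:**
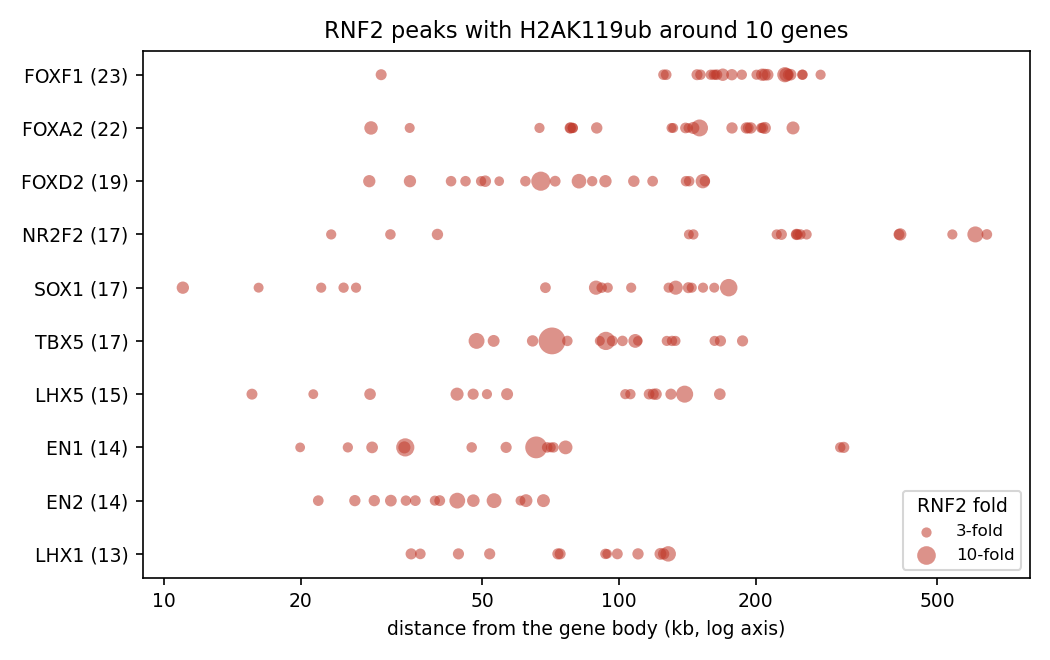
Distance from the gene body (horizontal axis, kb, log) of each intergenic RNF2 peak with H2AK119ub whose nearest coding gene is the one named, for the 10 developmental transcription factor genes with most such peaks (number in parentheses). Point area is proportional to RNF2 fold enrichment. Peaks of FOXF1 lie from 30.02 to 277.5 kb away, and the largest point is the 20.7-fold peak near TBX5.

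Broad RNF2 domains, of 10 kb or more, lay within 100 kb of 1456 members (29.996%, 28.7 to 31.3%), against 18.6% of all RNF2 peaks narrower than 10 kb. The share was 14.2% for peaks within 10 kb of a coding gene with H2AK119ub, 11.4% for those inside one, and 43.3% for intergenic peaks without an island. Among members nearest to a developmental transcription factor gene 78.5% had such a domain nearby, and among the other 4063 members 20.6%. Members of the first kind did not have higher folds, with a median of 3.40 against 3.50.

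The other gene lists were each nearest to under 2% of members. Developmental signalling genes were nearest to 1.24% of members, 1.24% of intergenic peaks without an island, 0.78% of all RNF2 peaks narrower than 10 kb and 1.06% of intergenic bases, with INHBB, an activin and inhibin subunit gene, at 11.5-fold and WNT10A, a Wnt ligand, at 11.4-fold. Pluripotency-associated genes were nearest to 46 members (0.948%, 0.695 to 1.26%), 1.02% of intergenic peaks without an island (0.616 to 1.59%), 0.374% of all RNF2 peaks narrower than 10 kb and 0.412% of bases. The 2 intergenic classes thus had overlapping intervals. The members included a 14.8-fold peak nearest to TBX3 and a 7.51-fold peak nearest to OTX2, both also factors of later development. The lists overlap: TBX3, nearest to 13 members, was also on the developmental transcription factor list, so its members are counted in both. The pluripotency share is thus not separate from that of the transcription factor genes. Axon guidance and adhesion genes, which flank much intergenic sequence, were nearest to 1.19% of members, 1.78% of intergenic peaks without an island, 1.12% of all RNF2 peaks narrower than 10 kb and 5.21% of bases, with EPHB3 at 11.1-fold and CDH2, the N-cadherin gene, at 10.2-fold. Olfactory receptor genes were nearest to 0.494% of members, below their 1.86% of bases but above the 0.161% of all RNF2 peaks narrower than 10 kb and the 0.161% of intergenic peaks without an island (0.0333 to 0.471%, beside an overlapping 0.317 to 0.735% for members). Ribosomal protein genes were nearest to 0.35% of members, 0.301% of all such peaks and 0.300% of bases. The farthest members from any coding gene lay 2067467 bp away on chromosome 18, over LINC01902 at 3.82-fold, and 1647563 bp away beside SPRY2 on chromosome 13, at 4.71-fold.

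**Figure D4:**
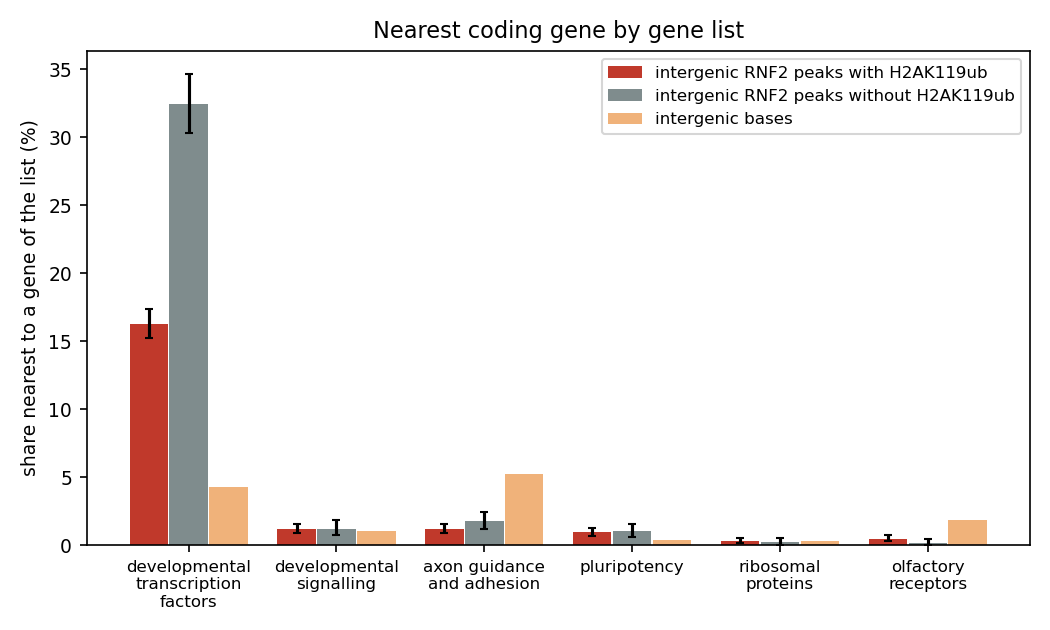
Share (vertical axis, percent) of intergenic RNF2 peaks with H2AK119ub, of intergenic RNF2 peaks without it and of intergenic bases whose nearest coding gene belongs to each of 6 gene lists. Whiskers are exact 95% intervals. Developmental transcription factor genes stand at 16.3%, 32.4% and 4.26%.

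Wild-type YTHDF1 peaks, which the selection did not use, overlapped 444 members (9.15%, 8.35 to 9.99%). Over all RNF2 peaks narrower than 10 kb the share was 16.5%. It was 20.3% (19.2 to 21.4%) for RNF2 peaks with H2AK119ub within 10 kb of a coding gene and 21.4% (20.8 to 22.1%) for those inside one, and 2.58% (1.91 to 3.41%) for intergenic peaks without an island. Members were narrower than the first classes, so the shares were read within width classes. Up to 500 bp 3.0% of members had YTHDF1 (1.79 to 4.70%) and 4.77% of peaks inside a gene (3.50 to 6.33%), and these intervals overlapped. From over 500 bp upward the members' intervals lay below those of both genic classes, with 9.71% against 21.5% inside a gene at over 1 to 2 kb, and 16.3% against 32.9% above 4 kb. Members also had lower RNF2 folds within the wider classes, with medians of 6.76 against 8.31 above 4 kb, and the part of signal strength in the lower share was not tested.

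**Figure D5:**
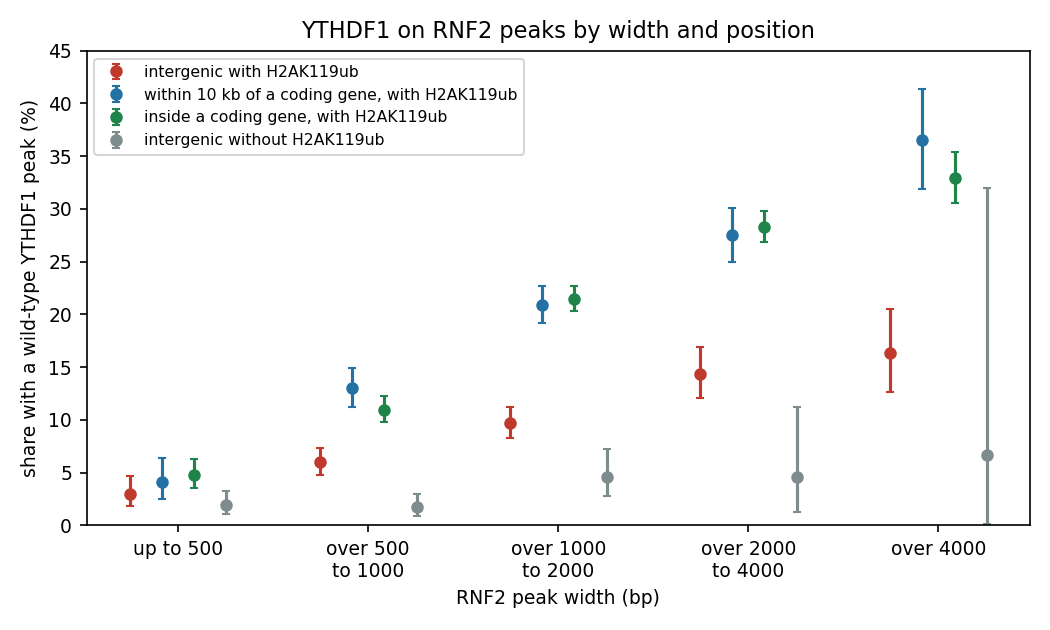
Share of RNF2 peaks with a wild-type YTHDF1 peak (vertical axis, percent) by RNF2 peak width (horizontal axis, bp) in 4 classes of position and H2AK119ub. Points are shares and whiskers exact 95% intervals. Intergenic peaks with H2AK119ub go from 3.0% in the narrowest class to 16.3% in the widest, below the genic classes at every width, with overlapping intervals only up to 500 bp.

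Within the members the share with YTHDF1 grew with RNF2 fold, being 5.18%, 6.26%, 9.15% and 15.9% in 4 groups of near equal size from the lowest to the highest fold, whose median widths were 785, 862, 1312 and 2435 bp. By distance from coding genes it was 10.7% at 10 to 20 kb, 10.3% at 20 to 50 kb, 9.002% at 50 to 100 kb, 5.30% at 100 to 500 kb and 6.52% beyond, the last from 92 members with an interval of 2.43 to 13.7%. Members nearest to a developmental transcription factor gene had YTHDF1 in 47 of 791 cases (5.94%, 4.398 to 7.82%), below the share of all members. The YTHDF1 peaks on members had a median fold of 2.95 (1.98 to 5.64), and 236 of 444 (53.2%) had a −log10 q under 2. In the whole wild-type YTHDF1 list the median fold was 2.89 and 62.5% had a −log10 q under 2, so weak peaks were common in the list as a whole. With YTHDF1 peaks of −log10 q 4 or more, 24 members were left (0.494%), against 2.06% within 10 kb of a coding gene and 1.98% inside one.

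The strongest YTHDF1 peak on a member, by its −log10 p, lay on chromosome 22 at 36454757 to 36455807, 11.8 kb from TXN2, the mitochondrial thioredoxin gene, with 5.64-fold YTHDF1, 5.47-fold RNF2 and an island of 22 kb. The second, at 4.13-fold, lay on chromosome 14 at 75293310 to 75294895 over an end of LINC01220, 11.9 kb from FOS, the immediate early transcription factor gene. The third, at 4.63-fold, lay 33.6 kb from WSB1, a gene for a ubiquitin ligase substrate receptor, and the fourth was the member over LINC00674. A member 10.6 kb from KIAA2013 had 4.35-fold YTHDF1 but 3.18-fold RNF2, and one 33.9 kb from TAC4 had 3.93-fold YTHDF1 and 11.4-fold RNF2. The 10 members with the strongest YTHDF1 peaks had RNF2 folds from 3.08 to 11.4, most of them above the median of 3.50 over all members.

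In YTHDF1-knockdown cells, YTHDF1 peaks lay on 11 members (0.227%, 0.113 to 0.405%), against 0.381% of all RNF2 peaks narrower than 10 kb. The knockdown list held 226 peaks and the wild-type list 44498, with different lowest −log10 q, so the count of 11 beside 444 in wild-type cells depends on the authors' thresholds and on unknown depth. Of the 11, 9 also had a wild-type YTHDF1 peak, and 4 had one of −log10 q 4 or more. Read from the YTHDF1 lists at a common −log10 q of 4 or more, 11 of 226 knockdown peaks lay on members (4.87%, 2.45 to 8.54%) and 24 of 1062 wild-type peaks (2.26%, 1.45 to 3.34%), and the intervals overlapped. FOS had a knockdown peak on both sides: at the member 11.9 kb away the knockdown list gave 6.80-fold and the wild-type list 4.13-fold, and at the member of 75258520 to 75259503, 19.8 kb away on the other side, 4.06-fold and 3.09-fold. At the TXN2 member the values were 3.05-fold in the knockdown list and 5.64-fold in the wild-type list. The member 10.3 kb from KIF1A, a neuronal kinesin gene, had a 4.47-fold knockdown peak and no wild-type peak, and the one 20.8 kb from FEZ1 had 4.72-fold in the knockdown list and 2.94-fold in the wild-type list. The lists were made from separate libraries of unknown depth, so these pairs are given side by side and not compared.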

How the data were processed

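Per the labels, H1 cells were cultured in mTeSR1 and sonicated chromatin was isolated with antibody. The submitters' processing notes name hg38 and, without roles, the trimmer Trimmomatic 0.35, the aligner Bowtie2 2.2.5, the peak callers MACS2 2.1.0 and SICER 1.1, and SAMtools 1.3.1 with Picard. For each list the caller is not given in the sources used here. Per the file layouts, the deposited RNF2 and YTHDF1 lists carry the authors' fold enrichment (a linear ratio), −log10 of the p-value and q-value, and a score of 10 times the −log10 p capped at 1000. The deposited H2AK119ub islands carry a score of unstated scale, capped at 1000, and lengths in steps of 200 bp.

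From these 4 lists, peaks on 22 autosomes, X and Y were joined by overlaps of 1 bp or more and set against a RefSeq table of GRCh38.p14 (59679 genes, 20037 protein-coding), which has no strand. Distances run from the peak midpoint to gene bodies. Gene lists were matched by symbol. Python 3.11.15, pandas 2.3.3 and scipy 1.17.1 gave counts, medians and exact binomial intervals, and overlaps were tested on simulated intervals. No test between classes was made, since peaks are not replicates. Members, lists and alternatives were chosen with earlier results of these data known. Named members were the 10 highest by fold, width, YTHDF1 strength and fold over a non-coding gene end, the 5 strongest knockdown peaks, the 5 farthest from genes, the 5 runs with most members, the 4 highest of each list and those at the limits, of which a selection is printed and 1 is not reported here. The named lncRNA, tRNA and microRNA genes, the lambda locus and the transcription factor genes with most members fall outside this rule.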

Additional observations from a re-analysis of the deposited data

How the results depend on the processing

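Beyond 50 kb from coding genes 1939 members were left, with YTHDF1 on 7.12%, non-coding midpoints in 33.2%, a developmental transcription factor gene nearest in 19.1%, a broad domain within 100 kb in 24.1% and another member within 20 kb in 59.1%. Beyond 5 kb the transcription factor share was 14.5%. The better-scoring 50% of the RNF2 list left 1937 members and gave 13.6%, 33.9%, 14.9%, 27.7% and 38.0% for the same 5 shares in that order, with a median fold of 4.86. The better-scoring 50% of the islands gave 10.03% for YTHDF1, 14.5% for transcription factors, 62.7% for neighbouring members and a median fold of 3.60. Without a width limit the domain share was 31.8%, but each peak this adds is itself a domain and counts as its own. The count alone thus fixed the direction of this shift. Counting distance from genes of every biotype left 1948 members, 7.49% with YTHDF1. The YTHDF1 share was 0.494% with a −log10 q of 4 or more, 5.50% with the better-scoring 50% of YTHDF1 peaks, 13.4% within 1 kb and 8.32% with the YTHDF1 midpoint inside the RNF2 peak. Non-coding overlap at any base was 37.6%, a transcription factor gene nearest and within 100 kb 12.3%, a domain within 50 kb 23.3% and another member within 5 kb 47.1%. The other 38 values, among them those for an island over 50% of the peak, autosomes alone and (chosen after seeing the data) without the immunoglobulin lambda locus, stayed within their 95% intervals, or within 1.5 times for counts. Apart from the shift without a width limit, the causes of these shifts were not tested, beyond the smaller sets that a stricter limit leaves.

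No paired analysis was possible because the authors merged the replicates of each group into 1 list. No replicate was left out, for the same reason. Depth is unknown, so a site of low signal and a site without the protein or mark cannot be told apart.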
